A study of Mus musculus with 16 samples.

Results

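Adenylate cyclases make the second messenger cAMP, G protein alpha subunits switch them on or off, phosphodiesterases break cyclic nucleotides down, and the subunits of protein kinase A carry the cAMP signal onward. The genes of these 4 families were followed in bulk RNA from murine gingival fibroblasts (mGF), primary cells of the gum's connective tissue grown from explants. They were chosen by symbol, as Adcy with a number, and Pde with a number and either no letter or a letter from a to d. The 6 protein kinase A subunit genes (Prkaca, Prkacb, Prkar1a, Prkar1b, Prkar2a and Prkar2b), the 3 Gnai genes and Gnas were also included. Of 56941 genes in the table, 43 carried such a symbol, and 34 had at least 10 counts in at least 4 libraries. These 34 comprised 8 adenylate cyclases, 16 phosphodiesterase genes, 4 G protein alpha subunits and 6 protein kinase A subunits. All 34 reached 10 counts in each of the 16 libraries, so none entered through a single condition.

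The cells came from the gingiva around the maxillary second molar of C57Bl6 mice aged 3 to 6 months, were wild type, and were used at passages 2 to 8 in medium with 20% serum. The 4 conditions, with 4 libraries each after 24 h, were BSA (control), IL-1β at 1 ng/mL, palmitate at 200 μM on the albumin carrier, and palmitate + IL-1β at those doses. The fatty acid palmitate is saturated and travels in blood on albumin, and the cytokine IL-1β is made in inflamed gum. The design asks how a lipid load, an inflammatory signal and both at once change gene expression in these cells. Nothing in the labels ties a library to its own culture or animal, so every p below measures the spread between these libraries, which may be technical.

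A hormone or local mediator that binds a Gs-coupled receptor releases Gnas protein, which stimulates membrane adenylate cyclases. Receptors coupled to Gi release Gnai proteins, which restrain most of these cyclases. The cAMP that results frees the catalytic subunits of protein kinase A from their regulatory subunits, and phosphodiesterases end the signal in small compartments of the cell. In fibroblasts cAMP is known for holding back proliferation, collagen production and the change to a contractile myofibroblast.

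Between 21234789 and 92752515 counts per library fell on genes, with palmitate replicate 10 the deepest and every other library at or below 35329711. All 8 fibroblast markers that were searched were expressed, with a summed level of 31221 to 33100 counts per 1e6 counts (CPM) in BSA and 28904 to 30960 in palmitate. Epithelial markers summed to 4.01 to 4.65 CPM in BSA and 2.41 to 2.83 in palmitate, with 2 of 6 genes high enough to test. Macrophage and leukocyte markers stayed at 2.58 to 4.35 CPM in BSA and 2.58 to 3.53 in palmitate. Endothelial markers summed to 1.78 to 2.29 CPM in BSA and 1.43 to 1.95 in palmitate. Markers of pericytes and smooth muscle were higher, at 179 to 198 CPM in BSA and 171 to 181 in palmitate, with all 5 genes tested. In bulk RNA, fewer cells of a kind and less RNA per cell cannot be told apart, and the part of the lower marker sums in the changes below was not tested.

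In the BSA libraries the pathway was unevenly stocked. Levels between genes were compared per length of exon, as reads per kilobase and per 1e6 counts (RPKM). The G protein alpha subunits led, with Gnai2 at 104 ± 2.37 RPKM (SD, n = 4), Gnas at 85.2 ± 2.79 and Gnai3 at 44.3 ± 2.36, while Gnai1 stood at 1.99 ± 0.231. Prkar1a, the regulatory subunit RI alpha, led the kinase genes at 41.8 ± 1.13 RPKM. The catalytic subunits Prkaca at 17.9 ± 0.292 and Prkacb at 16.1 ± 0.389 followed. These orders depend on the exon lengths used. In CPM, Gnas at 1023 stood above Gnai2 at 454, and Prkacb at 146 above Prkaca at 50.4. Adcy6 supplied 54.0% of the summed cyclase level with 13.8 ± 0.331 RPKM, and Adcy3 came next at 3.99 ± 0.0851. No phosphodiesterase gene reached the level of Adcy6. Pde8a was the highest of them at 7.60 ± 0.117 RPKM and Pde1a the next at 5.50 ± 0.171, and Pde3b at 4.55 ± 0.334 and Pde3a at 4.38 ± 0.240 differed by less than their spread. This order too depends on exon length. In CPM, Pde3b at 58.4 and Pde3a at 56.3 stood above Pde8a at 47.5 and Pde1a at 41.3. At the low end stood Pde4b, Pde7b, Pde8b, Pde1c and Adcy5, between 0.116 and 0.604 RPKM.

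**Figure D1:**
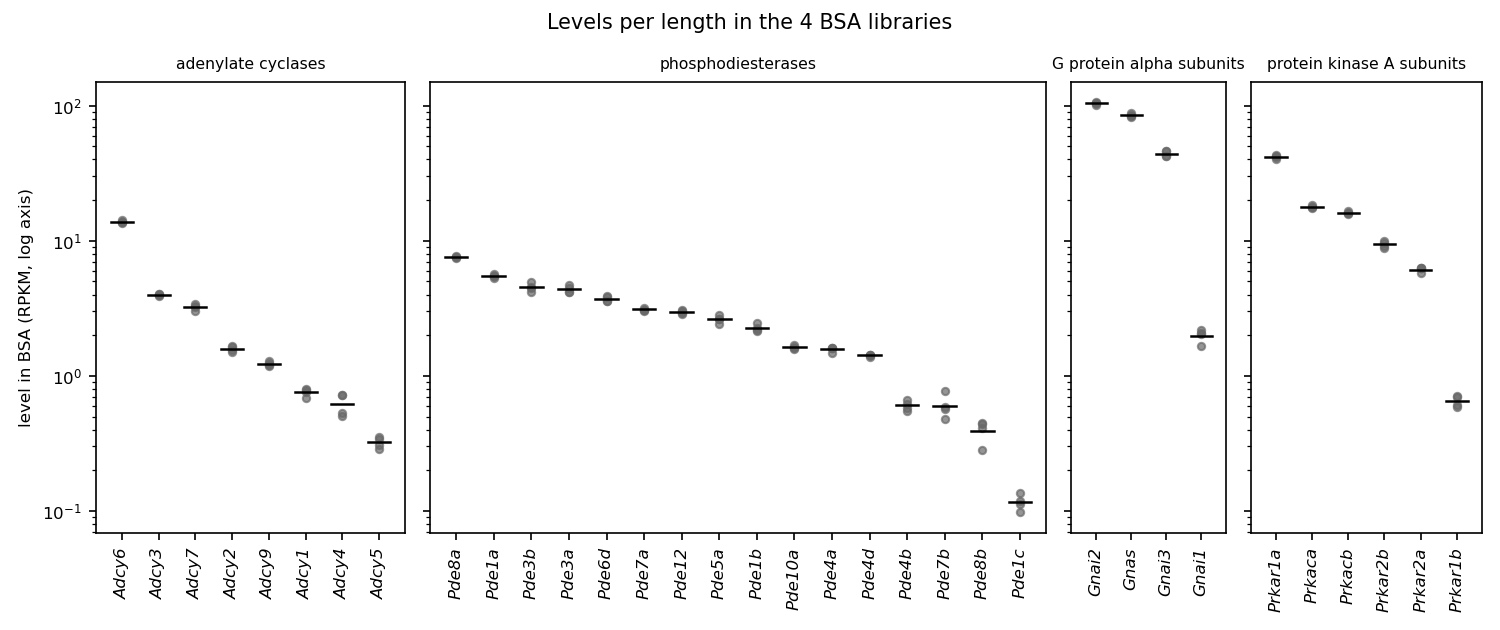
Level of each of the 34 genes in the 4 BSA libraries, in RPKM on a log axis, with genes ordered by mean within their family. Points are libraries and bars are means. Gnai2, Gnas, Gnai3 and Prkar1a stand above 40 RPKM and no other gene has a mean above 18 RPKM.

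Palmitate lowered more of these genes than it raised. Against BSA, 21 of the 34 genes changed at an adjusted p under 0.05 (edgeR quasi-likelihood test, Benjamini-Hochberg over the 16306 genes tested), 5 of them higher and 16 lower, where 37.3% of all tested genes changed, 19.8% higher and 17.5% lower. IL-1β changed 9 genes, 6 higher and 3 lower, beside 15.1% of all tested genes, 10.1% higher and 4.97% lower. With both agents 23 genes changed, 7 up and 16 down, beside 47.3% of all tested genes, 24.8% higher and 22.5% lower. The median log2 fold change of the 34 was -0.12 for palmitate, -0.02 for IL-1β and -0.11 for both, with the median of all tested genes at 0.00 in each. CPM ranges did not overlap in 22, 10 and 22 of the 34 genes, beside 36%, 17.6% and 41.5% of all tested genes. The 3 contrasts share the BSA libraries. Scaling by upper quartiles moved the balance toward lower levels, to 3 higher and 18 lower for palmitate, 5 and 8 for IL-1β, and 6 and 20 for both. The share of higher calls among all genes called moved with it, from 53.1% to 37.2%, from 67.1% to 43.5% and from 52.4% to 38.7%.

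**Figure D2:**
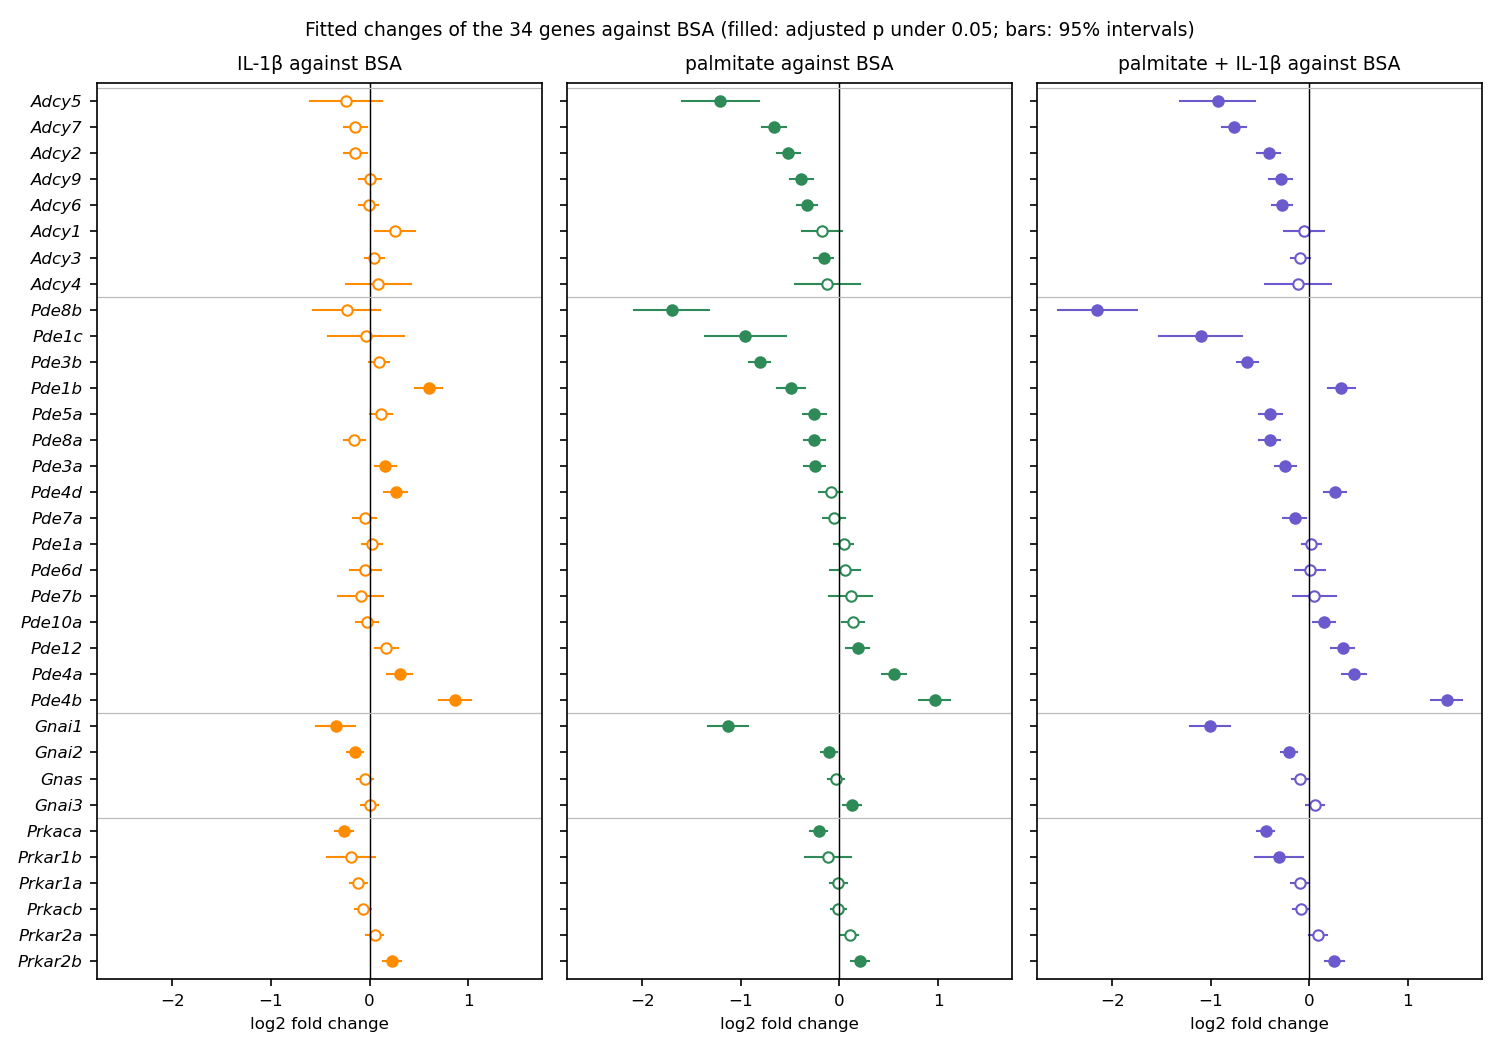
Fitted log2 fold change of each of the 34 genes against BSA in the 3 treated conditions, ordered within each family by the palmitate value. Filled circles have an adjusted p under 0.05 (edgeR) and bars are 95% intervals. Pde8b, Adcy5 and Gnai1 lie farthest to the left under palmitate and Pde4b farthest to the right in all 3 panels.

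Among the G proteins, the abundant subunits moved little and the scarce Gnai1 fell. Gnai1 (chromosome 5, 18469193 to 18565655, GRCm39), an inhibitory alpha subunit, measured 10.2, 12.4, 13.4 and 12.8 CPM in the BSA libraries, 10.6, 7.34, 9.50 and 11.0 in IL-1β, 5.64, 5.68, 5.54 and 5.30 in palmitate, and 5.89, 5.63, 6.01 and 6.70 in palmitate + IL-1β. Every library with palmitate lay below every library without it, whereas the BSA and IL-1β ranges overlapped. In the fit Gnai1 changed by a log2 value of -1.13 ± 0.10 (SE) for palmitate, with an adjusted p of 1.8e-10, and -1.01 ± 0.10 for both, with an adjusted p of 1.3e-09 (edgeR). IL-1β alone gave -0.34 ± 0.10 at an adjusted p of 0.0187 (edgeR), a call that was lost when only the 8 libraries compared were fitted and without BSA replicate 3, BSA replicate 4 or IL-1β replicate 6.

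Gnai2, the main inhibitory subunit of these cells, was at 464, 454, 440 and 459 CPM in BSA, 412, 414, 428 and 389 in IL-1β, 431, 427, 423 and 405 in palmitate, and 389, 385, 404 and 393 in both. The BSA libraries were the 4 highest of the 16. The log2 fold change was -0.15 ± 0.04 for IL-1β (adjusted p = 0.0111), -0.11 ± 0.04 for palmitate (adjusted p = 0.0338) and -0.21 ± 0.04 for both (adjusted p = 5.9e-05, edgeR). The palmitate call was lost without BSA replicate 1 or 4 or palmitate replicate 10, 11 or 12, and the IL-1β call without IL-1β replicate 8. Gnai3 was 0.13 ± 0.05 higher on the log2 scale under palmitate at an adjusted p of 0.0239 (edgeR), lost under upper-quartile scaling, with no expression filter, and without BSA replicate 1 or 2 or palmitate replicate 9 or 12.

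Gnas, the stimulatory subunit, was at 1016, 1066, 984 and 1024 CPM in BSA, 1035, 1004, 977 and 943 in IL-1β, 999, 950, 1013 and 1025 in palmitate, and 952, 944, 929 and 1015 in both. These ranges overlapped throughout. The log2 difference from BSA was -0.05 (95% interval -0.13 to 0.04) for IL-1β, -0.04 (-0.12 to 0.04) for palmitate and -0.09 (-0.17 to -0.01) for both, with adjusted p-values of 0.517, 0.529 and 0.0739 (edgeR). The last passed the threshold under 7 of 22 alternative settings and the palmitate value under 1.

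The adenylate cyclases were lower under palmitate, with or without IL-1β. Palmitate lowered 6 of 8 against BSA and raised none, palmitate + IL-1β lowered 5, and IL-1β changed none, where 17.5%, 22.5% and 4.97% of all tested genes were lower. Palmitate + IL-1β against IL-1β, which holds the cytokine constant, lowered 7 of 8, beside 16.1% of all tested genes. Of these 7, the calls of Adcy2, Adcy6, Adcy7 and Adcy9 held in every alternative. Adcy1 was lost without IL-1β replicate 8 or palmitate + IL-1β replicate 13 or 16, Adcy3 without IL-1β replicate 6 or 7 or palmitate + IL-1β replicate 16, and Adcy5 without IL-1β replicate 7. In the edgeR test of IL-1β against BSA all 8 missed the threshold after adjustment.

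Adcy7 (chromosome 8, 88998882 to 89059394), a cyclase known from blood and immune cells, was at 37.8, 35.0, 39.7 and 37.1 CPM in BSA and 29.9, 35.9, 34.8 and 34.8 in IL-1β. It was at 25.0, 23.2, 22.2 and 24.6 CPM in palmitate and 23.3, 23.4, 21.0 and 20.2 in both. The ranges with and without palmitate did not overlap. Fitted log2 values were -0.66 ± 0.06 for palmitate (adjusted p = 2.2e-10) and -0.76 ± 0.06 for both (adjusted p = 6.5e-12, edgeR). IL-1β alone gave -0.14 with a 95% interval of -0.26 to -0.02 and an adjusted p of 0.118 (edgeR). The IL-1β value passed the threshold under 1 of 22 alternative settings, upper-quartile scaling.

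Adcy5 (chromosome 16, 34975023 to 35126113), a cyclase inhibited by Gi proteins and by calcium, was scarce. It measured 2.63, 2.26, 2.52 and 2.13 CPM in BSA, 1.51, 2.07, 2.60 and 1.82 in IL-1β, 1.60, 1.00, 0.698 and 0.945 in palmitate, and 1.25, 1.36, 1.13 and 1.29 in both, from 19 to 91 counts per library. All BSA libraries exceeded all palmitate libraries. On the log2 scale Adcy5 changed by -1.21 ± 0.20 for palmitate (adjusted p = 8.7e-06) and -0.93 ± 0.19 for both (adjusted p = 0.000187, edgeR). For IL-1β the difference of -0.24 had a 95% interval from -0.60 to 0.12 and an adjusted p of 0.437 (edgeR).

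Adcy2 was at 21.0, 22.4, 20.2 and 22.2 CPM in BSA, 19.0, 19.3, 19.1 and 20.3 in IL-1β, 13.7, 15.4, 15.2 and 15.2 in palmitate, and 15.3, 16.7, 16.9 and 15.5 in both. Palmitate libraries were again below all BSA libraries, at a log2 fold change of -0.52 ± 0.06 (adjusted p = 2.2e-08, edgeR). The dominant Adcy6, which Gi proteins and calcium also inhibit, was at 95.4, 94.0, 99.4 and 95.9 CPM in BSA, 82.3, 98.6, 102 and 98.6 in IL-1β, 75, 77, 75.4 and 79.2 in palmitate, and 81, 82, 79.7 and 73.5 in both. Its change was smaller, -0.33 ± 0.05 for palmitate (adjusted p = 4.8e-06) and -0.28 ± 0.05 for both (adjusted p = 3.1e-05, edgeR). Adcy3 was at 50.2, 48.1, 49.3 and 50.4 CPM in BSA, 48.4, 52.6, 53.6 and 49.9 in IL-1β, 42.1, 44.6, 46.1 and 44.4 in palmitate, and 46.6, 46.5, 49.7 and 42.8 in both, with a palmitate log2 fold change of -0.16 ± 0.05 (adjusted p = 0.0102, edgeR), and Adcy9 fell by 0.39 on the log2 scale. Adcy1 and Adcy4 did not pass in any contrast against BSA. The log2 value of Adcy1 for palmitate was -0.18 with a 95% interval of -0.38 to 0.02.

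**Figure D3:**
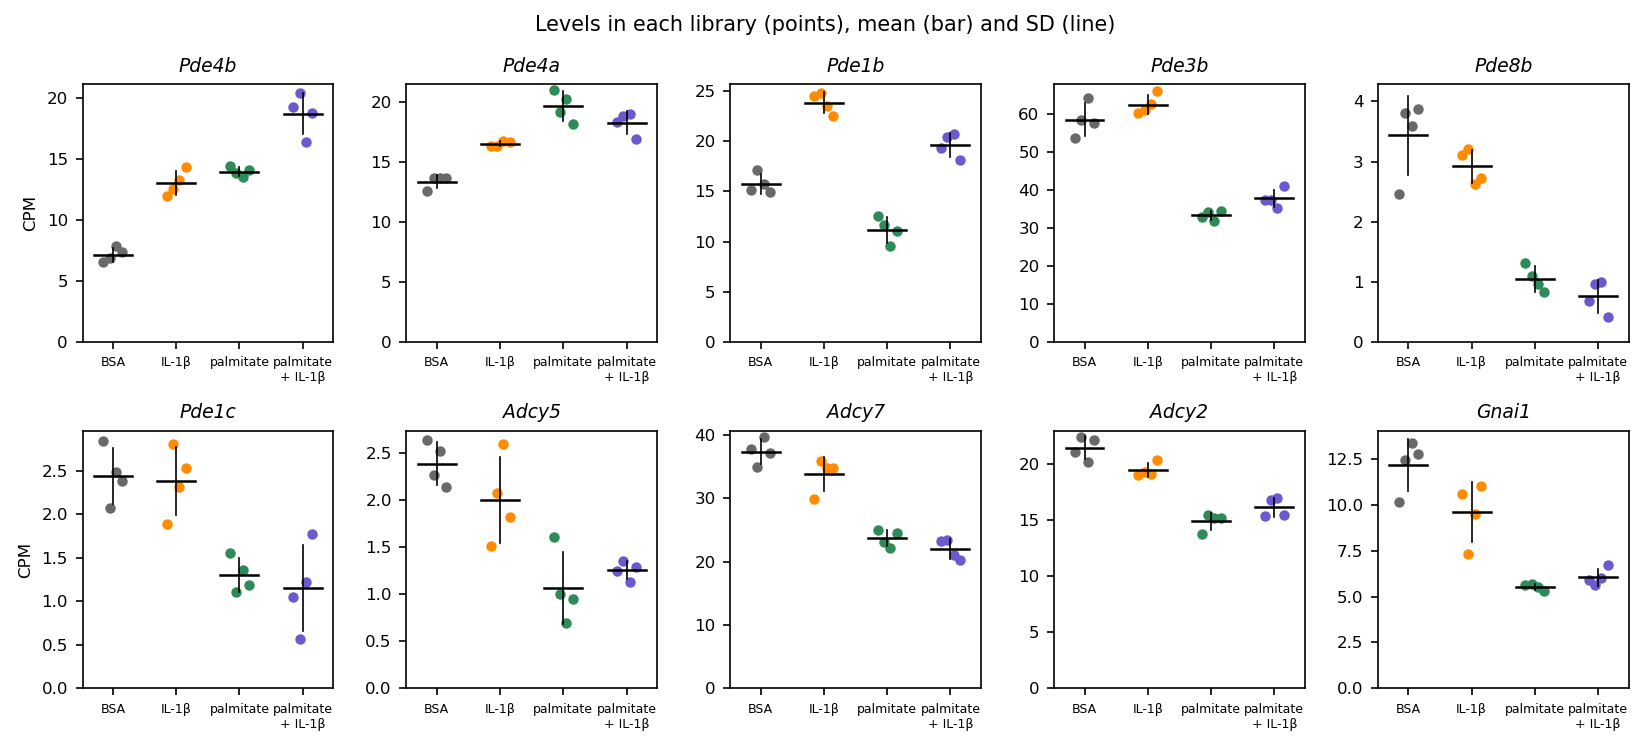
Level of 10 genes in every library, in CPM, by condition. Points are libraries, horizontal bars are means and vertical lines are SD over 4 libraries. In Pde3b, Pde8b, Pde1c, Adcy7, Adcy2 and Gnai1 all libraries with palmitate lie below all without it, and Pde1b is highest in IL-1β and lowest in palmitate.

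The phosphodiesterases moved in both directions. Of the 16 genes, palmitate raised 3 and lowered 7, IL-1β raised 5 and lowered none, and palmitate + IL-1β raised 6 and lowered 7. Of all tested genes the shares raised were 19.8%, 10.1% and 24.8% and the shares lowered 17.5%, 4.97% and 22.5%, so the 3 of 16 raised by palmitate were near the share of all genes. The genes that rose under palmitate were Pde4b, Pde4a and Pde12. Those that fell were Pde8b, Pde1c, Pde3b, Pde1b, Pde5a, Pde8a and Pde3a. The name covers more than cAMP breakdown, since Pde5a is specific for cGMP, Pde6d is a carrier of lipid-modified proteins rather than an enzyme, and Pde12 removes RNA tails in mitochondria.

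Pde4b (chromosome 4, 101944740 to 102465716), a cAMP-specific enzyme that inflammatory signals are known to induce, measured 6.54, 6.85, 7.82 and 7.34 CPM in BSA and 11.9, 12.5, 13.2 and 14.3 in IL-1β. It measured 14.4, 13.8, 13.5 and 14.1 CPM in palmitate and 19.3, 20.4, 16.4 and 18.7 in palmitate + IL-1β. Every treated library was above every BSA library, and every library with both agents was above every library with a single agent. The fold change was 1.83 for IL-1β (log2 0.87 ± 0.08, adjusted p = 1.6e-09), 1.96 for palmitate (0.97 ± 0.08, adjusted p = 1.3e-11) and 2.63 for both (1.39 ± 0.08, adjusted p = 8.7e-16, edgeR). Palmitate and IL-1β alone did not differ past the threshold, at a log2 difference of 0.10 with a 95% interval of -0.05 to 0.25.

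Pde4a (chromosome 9, 21073005 to 21124544), of the same cAMP-specific family, was at 12.6, 13.6, 13.6 and 13.6 CPM in BSA, 16.3, 16.3, 16.7 and 16.7 in IL-1β, 21.0, 19.2, 20.2 and 18.2 in palmitate, and 18.4, 18.8, 19.0 and 16.9 in both. Here the palmitate libraries were above all IL-1β libraries, and those with both agents overlapped with palmitate. The log2 fold change was 0.31 ± 0.06 for IL-1β (adjusted p = 0.000819), 0.55 ± 0.06 for palmitate (adjusted p = 1.1e-08) and 0.45 ± 0.06 for both (adjusted p = 3.5e-07, edgeR). Pde4d, the third expressed gene of the family, was at 20.6 ± 0.317 CPM in BSA, 24.8 ± 0.858 in IL-1β, 19.2 ± 1.06 in palmitate and 24.6 ± 1.87 in both. It rose with IL-1β (log2 0.27 ± 0.06, adjusted p = 0.00159) and with both (0.26 ± 0.06, adjusted p = 0.000441, edgeR), and for palmitate alone the value was -0.09 with a 95% interval of -0.21 to 0.03.

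Pde1b (chromosome 15, 103411286 to 103439706), a calcium- and calmodulin-activated enzyme, responded in opposite directions to the agents. It was at 15.1, 17.2, 15.7 and 14.9 CPM in BSA, 24.6, 24.8, 23.5 and 22.5 in IL-1β, 12.5, 11.6, 9.51 and 11.0 in palmitate, and 19.3, 20.4, 20.8 and 18.1 in both. No range overlapped with another. The log2 fold change against BSA was 0.60 ± 0.07 for IL-1β (adjusted p = 1.3e-07), -0.49 ± 0.07 for palmitate (adjusted p = 2.2e-06) and 0.32 ± 0.07 for both (adjusted p = 0.000295, edgeR). IL-1β raised it over palmitate by 0.82 ± 0.07 when added to the lipid (adjusted p = 9.0e-10, edgeR).

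Pde8b (chromosome 13, 95160559 to 95386844), a cAMP-specific enzyme of high affinity, showed the deepest fall of the 34 genes. It was at 2.46, 3.81, 3.59 and 3.88 CPM in BSA, 3.11, 3.20, 2.63 and 2.73 in IL-1β, 1.31, 1.09, 0.955 and 0.822 in palmitate, and 0.680, 0.960, 0.997 and 0.405 in both, from 11 to 118 counts per library. The 8 libraries with palmitate were all below the 8 without it. The log2 fold change was -1.70 ± 0.19 for palmitate (adjusted p = 1.2e-08) and -2.15 ± 0.21 for both (adjusted p = 2.6e-10, edgeR), and IL-1β alone gave -0.23 with a 95% interval of -0.57 to 0.11. Its more abundant relative Pde8a was at 46.6, 48.4, 47.6 and 47.2 CPM in BSA, 45.2, 41.8, 41.9 and 41.8 in IL-1β, 43.6, 39.2, 38.4 and 38.0 in palmitate, and 36.5, 38.4, 31.3 and 37.4 in both, with a log2 fold change of -0.26 ± 0.06 for palmitate (adjusted p = 0.000357, edgeR) and -0.40 ± 0.06 for both (adjusted p = 3.6e-07, edgeR).

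Pde3b (chromosome 7, 114013685 to 114138486), the enzyme known for the action of insulin on fat cells, was at 53.7, 58.3, 64.1 and 57.6 CPM in BSA, 60.2, 60.9, 62.5 and 66.0 in IL-1β, 32.7, 34.2, 31.8 and 34.4 in palmitate, and 37.4, 37.4, 35.2 and 40.9 in both. Libraries with and without palmitate did not overlap. The fitted log2 values were -0.81 ± 0.05 for palmitate (adjusted p = 8.0e-14) and -0.63 ± 0.05 for both (adjusted p = 1.7e-11, edgeR). Pde3a fell less, by 0.25 on the log2 scale under palmitate and 0.24 under both. Its IL-1β value of 0.16 ± 0.05 passed at an adjusted p of 0.0461 (edgeR) but missed the threshold in 15 of 22 alternative settings.

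Pde1c, like Pde1b activated by calmodulin, was scarce at 2.84, 2.07, 2.48 and 2.38 CPM in BSA, 1.88, 2.81, 2.31 and 2.53 in IL-1β, 1.55, 1.10, 1.36 and 1.19 in palmitate, and 1.05, 0.563, 1.22 and 1.77 in both. The palmitate libraries were below all BSA and IL-1β libraries, at a log2 fold change of -0.96 ± 0.21 (adjusted p = 0.000437, edgeR). The cGMP-specific Pde5a was at 28.1, 25.9, 28.0 and 30.0 CPM in BSA, 31.3, 29.0, 29.6 and 31.5 in IL-1β, 24.7, 22.6, 22.3 and 24.6 in palmitate, and 22.4, 20.1, 22.7 and 19.7 in both. Its log2 fold change was -0.26 ± 0.06 for palmitate (adjusted p = 0.000848, edgeR) and -0.40 ± 0.06 for both (adjusted p = 1.8e-06, edgeR). Pde1a, the most abundant calmodulin-activated gene, was at 39.7, 42.9, 41.2 and 41.6 CPM in BSA and between 38.5 and 46.1 in the 12 treated libraries, with overlap in every contrast.

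The other phosphodiesterase genes changed by less. Pde12 was 0.19 ± 0.06 higher on the log2 scale under palmitate (adjusted p = 0.0127, edgeR), a call lost under upper-quartile scaling and without BSA replicate 1, and 0.34 ± 0.06 higher under both. Pde10a and Pde7a passed for both agents against BSA, at 0.15 ± 0.06 and -0.15 ± 0.06, and these calls were lost in 13 and 3 of 22 alternative settings. Pde7a missed the threshold without BSA replicate 1, BSA replicate 4 or palmitate + IL-1β replicate 16. Pde6d and Pde7b passed in no contrast.

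The stretches before annotated starts of Pde4b, Pde1b and Pde8b are shown because these genes gave the largest rise, the opposite responses and the largest fall. Each is the 200 bases before a start, read 5′ to 3′ on the strand of the gene, from RefSeq on GRCm38.p6, whose positions differ from the GRCm39 positions above. Each gene has several annotated starts, and the stretches printed were chosen with their motif matches known. Of the 4 windows of Pde4b, 2 hold a match to the NF-κB motif, named for a transcription factor that IL-1β is known to activate, 1 holds the core of the cAMP response element, and the window not printed holds none of the motifs searched. Of the 3 windows of Pde1b only the printed one holds a match, to the NF-κB motif. The 5 windows of Pde8b hold no NF-κB match, and 1 that is not printed holds the core of the cAMP response element. Capitals mark the core of that element, on the opposite strand, in the first stretch. In the next 3 they mark the NF-κB motif, which in the earliest of these lies on the opposite strand. The Pde8b stretch has no capitals.
Pde4b, chr4:102421355-102421554, plus strand: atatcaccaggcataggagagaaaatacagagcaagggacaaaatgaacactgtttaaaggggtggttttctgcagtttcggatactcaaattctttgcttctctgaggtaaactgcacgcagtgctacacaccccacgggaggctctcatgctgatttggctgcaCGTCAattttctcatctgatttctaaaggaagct
Pde4b, chr4:102569860-102570059, plus strand: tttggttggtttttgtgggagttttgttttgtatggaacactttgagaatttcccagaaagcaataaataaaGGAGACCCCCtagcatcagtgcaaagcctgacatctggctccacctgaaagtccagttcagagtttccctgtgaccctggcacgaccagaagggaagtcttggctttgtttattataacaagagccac
Pde4b, chr4:102587358-102587557, plus strand: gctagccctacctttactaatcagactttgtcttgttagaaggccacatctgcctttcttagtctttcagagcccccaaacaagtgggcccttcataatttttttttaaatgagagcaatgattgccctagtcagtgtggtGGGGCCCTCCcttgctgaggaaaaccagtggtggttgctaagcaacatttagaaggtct
Pde1b, chr15:103514777-103514976, plus strand: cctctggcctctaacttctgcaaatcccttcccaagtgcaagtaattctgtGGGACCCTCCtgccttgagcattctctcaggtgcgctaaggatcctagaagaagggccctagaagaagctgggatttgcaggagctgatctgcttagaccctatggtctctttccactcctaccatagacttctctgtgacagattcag
Pde8b, chr13:95250290-95250489, minus strand: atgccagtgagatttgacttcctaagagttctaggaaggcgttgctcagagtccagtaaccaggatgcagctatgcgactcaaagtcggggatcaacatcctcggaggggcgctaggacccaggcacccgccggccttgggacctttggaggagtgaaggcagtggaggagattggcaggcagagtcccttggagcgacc

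The promoter table held windows for 29 of the 34 genes, 65 windows of 300 bases from 250 before to 50 after a start. An NF-κB match stood in 8 of these 65 windows, or 12.3%, and in 8.46% of all 32851 windows. The matches of Pde4b began 128 and 59 bases before their starts and that of Pde1b 149 bases before. The cAMP response element TGACGTCA, a palindrome that reads the same on both strands, stood in 2 windows, 3.08% beside 1.79% of all windows. These were overlapping windows of Prkar1a, and both matches were the same element, so the 3.08% counts it in each window. The shorter core TGACG, searched on both strands and contained in the full element, stood in 18 windows, 27.7% beside 20.8%. These are matches of letters only, and which start the cells used was not measured.

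Among the kinase subunits, the catalytic gene Prkaca fell and the regulatory gene Prkar2b rose. Prkaca was at 51.4, 49.4, 50.4 and 50.3 CPM in BSA, 41.0, 43.9, 44.2 and 39.2 in IL-1β, 43.3, 42.8, 45.4 and 42.7 in palmitate, and 36.7, 37.0, 37.7 and 36.8 in both. The BSA libraries were above all others and those with both agents below all others. Prkaca changed on the log2 scale by -0.26 ± 0.05 for IL-1β (adjusted p = 0.000117), -0.21 ± 0.05 for palmitate (adjusted p = 0.000376) and -0.44 ± 0.05 for both (adjusted p = 1.3e-09, edgeR). Prkar2b, the regulatory subunit RII beta, was at 52.9 ± 3.01 CPM in BSA, 62.0 ± 3.21 in IL-1β, 61.0 ± 2.06 in palmitate and 63.0 ± 2.43 in both, and rose by 0.21 to 0.25 on the log2 scale in the 3 contrasts against BSA (adjusted p = 0.00109, 0.000842 and 6.8e-05 in the order given, edgeR).

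The most abundant regulatory gene Prkar1a was at 420, 394, 412 and 404 CPM in BSA, 350, 382, 396 and 378 in IL-1β, 409, 402, 411 and 396 in palmitate, and 383, 385, 400 and 354 in both. The catalytic Prkacb was at 145, 145, 151 and 142 CPM in BSA, 132, 140, 141 and 142 in IL-1β, 146, 143, 142 and 148 in palmitate, and 141, 143, 131 and 135 in both. Under palmitate alone both genes gave a log2 value of -0.01 and overlapped with BSA. Prkar2a passed in no contrast. Prkar1b passed only for both agents against BSA, at -0.31 ± 0.12 with an adjusted p of 0.0392 (edgeR), and the call was lost with DESeq2 and without any of BSA replicates 2 and 4 and palmitate + IL-1β replicates 13, 15 and 16.

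Holding one agent constant shows what the other added. Palmitate + IL-1β against IL-1β changed 19 of the 34 genes, 3 higher and 16 lower, beside 35% of all tested genes, 18.9% higher and 16.1% lower. The rises were Pde4b, at 0.52 ± 0.07 with an adjusted p of 1.0e-06 (edgeR), Pde10a and Pde12. The last pair, each at 0.17 ± 0.06 with adjusted p-values of 0.0222 and 0.0242 (edgeR), were each lost in 7 of 22 alternative settings, upper-quartile scaling, no filter and the fit of the compared libraries among them. Without IL-1β replicate 6 or 7 or palmitate + IL-1β replicate 14 both calls were lost, and each was also lost without 1 further library, IL-1β replicate 5 for Pde10a and palmitate + IL-1β replicate 13 for Pde12. Palmitate + IL-1β against palmitate changed 5 genes, 4 higher and 1 lower, beside 9.81% of all tested genes, 5.71% higher and 4.1% lower. The genes higher were Pde1b, Pde4b at 0.42 ± 0.07 (adjusted p = 0.000112), Pde4d at 0.35 ± 0.06 (adjusted p = 8.7e-05) and Pde3b at 0.18 ± 0.05 (adjusted p = 0.0351, edgeR), and the lower one was Prkaca at -0.23 ± 0.05 (adjusted p = 0.00077, edgeR). The Pde3b call was lost in 8 of 22 alternative settings. Palmitate against IL-1β directly changed 18 genes, 3 higher and 15 lower, beside 31.6% of all tested genes, 16.5% higher and 15.2% lower, and 7 of the 8 cyclases were lower with palmitate. Higher with palmitate were Pde4a at 0.25 (adjusted p = 0.00235), Pde10a at 0.16 (adjusted p = 0.0291) and Gnai3 at 0.13 (adjusted p = 0.0289, edgeR). The Pde10a and Gnai3 calls were lost in 7 and 8 of 22 alternative settings.

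The interaction of the agents, the log2 effect of both minus the sum of the single effects, passed in 2 of 34 genes, both below 0, beside 1.99% of all tested genes, 0.159% above and 1.83% below 0. They were Pde4a, at -0.41 ± 0.09 (adjusted p = 0.00593), and Pde4b, at -0.45 ± 0.11 (adjusted p = 0.0204, edgeR). In both the level with both agents was below the sum of the single effects on the log2 scale. The Pde4a call was lost under none of 21 alternative settings. The Pde4b call was lost without BSA replicate 1, BSA replicate 2 or IL-1β replicate 8, which left 1 gene in the latter 2 cases. Pde1b, Adcy5, Pde5a and Gnai1 did not pass, with values of 0.22 (95% interval 0.02 to 0.41), 0.52 (-0.03 to 1.08), -0.26 (-0.42 to -0.09) and 0.46 and adjusted p-values of 0.452, 0.565, 0.156 and 0.144 (edgeR). Gnai1 passed without BSA replicate 1.

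Summing levels per length shows how much each change weighed within its family. The 8 cyclases together gave 25.6 ± 0.609 RPKM in BSA, 25.3 ± 1.75 in IL-1β, 20.1 ± 0.421 in palmitate and 20.7 ± 0.905 in both. The palmitate libraries, from 19.7 to 20.6, were all below the BSA libraries, from 24.8 to 26.3, a change of -21.5% in the mean. Adcy6 held its share, at 54.9% of the sum in palmitate. Pde3a and Pde3b summed to 8.93 ± 0.550 RPKM in BSA and 6.28 ± 0.324 in palmitate, and Pde3b supplied 50.9% of that sum in BSA and 41.4% in palmitate.

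Pde4a, Pde4b and Pde4d summed to 3.59 ± 0.0966 RPKM in BSA, 4.75 ± 0.145 in IL-1β, 4.81 ± 0.118 in palmitate and 5.42 ± 0.227 in both. The share of Pde4b in that sum was 16.8%, 23.2%, 24.5% and 29.2%. Pde8a and Pde8b summed to 7.99 ± 0.180 RPKM in BSA, 7.17 ± 0.282 in IL-1β, 6.49 ± 0.434 in palmitate and 5.84 ± 0.493 in both. With Pde7a and Pde7b added, the cAMP-specific families 4, 7 and 8 summed to 15.3 ± 0.257, 15.5 ± 0.145, 14.9 ± 0.586 and 14.7 ± 0.718 RPKM in the order of the conditions above, and these ranges overlapped between BSA and each treatment. Prkaca and Prkacb summed to 34.0 ± 0.498 RPKM in BSA, 30.3 ± 1.04 in IL-1β, 31.5 ± 0.363 in palmitate and 28.4 ± 0.514 in both, with the BSA libraries above all others. These sums are of RNA, not of enzyme activity, and no test was run on them.

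**Figure D4:**
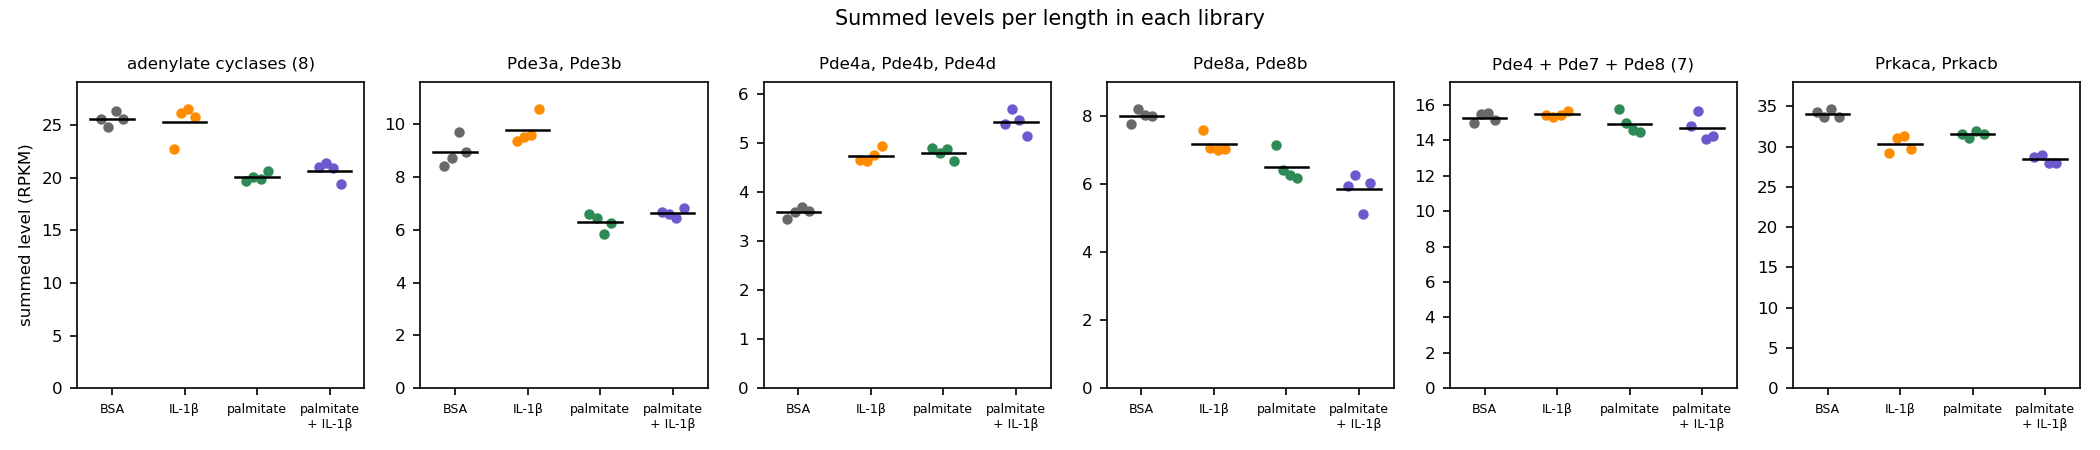
Summed level per length (RPKM) of the genes named over each panel, by condition. Points are libraries and bars are means. The cyclase sum is lower in all libraries with palmitate, the Pde4 sum is higher in all treated libraries, and the sum over Pde4, Pde7 and Pde8 overlaps between BSA and each treatment.

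The other 9 genes that matched by symbol were too low to keep, and none passed the expression filter in the fit to all 16 libraries. Adcy10, Pde2a, Pde4c, Pde6b and Pde6c had at most 4 counts in any library. Adcy8, Pde6a and Pde9a reached 12, 19 and 20. Pde11a, an enzyme that breaks down both cAMP and cGMP, reached 33 counts in the deepest library and measured 0.0668 ± 0.0263 CPM in BSA, 0.132 ± 0.103 in IL-1β, 0.206 ± 0.117 in palmitate and 0.318 ± 0.0721 in both. With no expression filter its adjusted p was 0.0344 for palmitate and 0.00349 for both (edgeR), and DESeq2 gave 0.0666 and 0.00903. Pde11a passed the filter when BSA replicate 3, IL-1β replicate 5, 6 or 8, palmitate replicate 9, 11 or 12, or palmitate + IL-1β replicate 16 was left out. In those fits its adjusted p ran from 0.00944 to 0.0298 for palmitate and from 0.00295 to 0.00682 for both (edgeR). At 1 to 3 counts in the BSA libraries the size of its change is not measured.

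The genes around these families in the pathway were counted from lists of known members. The counts are to be read against all tested genes, of which palmitate raised 19.8% and lowered 17.5%, IL-1β raised 10.1% and lowered 4.97%, and both raised 24.8% and lowered 22.5%. Of 14 tested Gs-coupled receptor genes and their partners, palmitate raised 6 and lowered 3, IL-1β raised 4 and lowered 1, and both raised 7 and lowered 3. The 3 lowered by palmitate and the 3 lowered by both were near the 17.5% and 22.5% of all genes. Named below are those past a log2 fold change of 1 in either direction against BSA, at most 4 per list and those of highest level. Ptgir, the prostacyclin receptor, rose from 1.62 ± 0.502 CPM in BSA to 7.20 ± 0.379 in palmitate and 8.75 ± 1.24 in both (log2 2.18 ± 0.15 and 2.45 ± 0.14, adjusted p = 8.0e-14 and 2.1e-15, edgeR). Pth1r, the parathyroid hormone receptor, fell from 19.9 ± 1.14 CPM to 10.2 ± 0.427 and 8.16 ± 0.434 (log2 -0.96 ± 0.07 and -1.29 ± 0.07, adjusted p = 2.5e-13 and 2.7e-16, edgeR). Vipr2, a receptor for vasoactive intestinal peptide, rose with IL-1β from 1.29 ± 0.148 to 3.02 ± 0.582 CPM (log2 1.21 ± 0.18, adjusted p = 8.2e-06, edgeR).

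Of 16 tested Gi-coupled receptor genes, palmitate raised 6 and lowered 6, IL-1β raised 2 and lowered 1, and both raised 6 and lowered 6, where 15.1% of all tested genes changed with IL-1β, near the 3 of 16 here. S1pr3, a receptor for sphingosine 1-phosphate that also couples to other G proteins, rose from 18.8 ± 1.19 CPM in BSA to 35.7 ± 1.11 in IL-1β, 66.8 ± 0.995 in palmitate and 69.8 ± 2.38 in both (log2 1.83 ± 0.05 for palmitate, adjusted p = 6.0e-24, edgeR). Npy1r, a neuropeptide Y receptor, fell from 7.82 ± 0.644 to 3.83 ± 0.218 CPM with palmitate (log2 -1.04 ± 0.11, adjusted p = 4.4e-09, edgeR).

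Of 20 tested genes for other G protein subunits, palmitate raised 4 and lowered 7, IL-1β raised 2 and lowered 2, and both raised 4 and lowered 9, where the 4 of 20 raised by palmitate were near the 19.8% of all genes and the 4 of 20 changed by IL-1β near their 15.1%. The gamma subunit gene Gng2 stood apart in size, at 14.9 ± 0.881 CPM in BSA, 15.8 ± 0.559 in IL-1β, 55.4 ± 1.11 in palmitate and 48.4 ± 3.22 in both (log2 1.90 ± 0.06 for palmitate, adjusted p = 6.7e-23, edgeR). Of 18 tested regulators of G proteins, palmitate raised 5 and lowered 4, IL-1β raised 6 and lowered 2, and both raised 6 and lowered 4. The 4 of 18 lowered by both were near the 22.5% of all tested genes, and the 4 lowered by palmitate stood beside 17.5%. Rgs16, which speeds the shut-off of Gi and Gq proteins, rose from 2.90 ± 0.472 CPM in BSA to 11.4 ± 0.192 in IL-1β, 17.7 ± 1.49 in palmitate and 21.9 ± 0.808 in both (log2 1.98, 2.62 and 2.92, each ± 0.09). Rgs4, of the same kind, rose from 11.3 ± 0.501 to 23.0 ± 1.07 CPM with IL-1β (log2 1.02 ± 0.07, adjusted p = 1.9e-13, edgeR), and Rgs2 fell from 6.29 ± 0.388 to 2.10 ± 0.382 CPM with palmitate (log2 -1.63 ± 0.13, adjusted p = 2.8e-12, edgeR).

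Downstream, of 13 tested kinase inhibitors and anchors, palmitate raised 4 and lowered 4, IL-1β raised 3 and lowered 1, and both raised 5 and lowered 3. The 3 of 13 lowered by both were near the 22.5% of all tested genes. Of 11 tested cAMP effectors and CREB factors, palmitate raised 2 and lowered 1, IL-1β raised 4, and both raised 5 and lowered 1, so palmitate changed 3 of 11, a smaller share than the 37.3% of all tested genes. Of 15 tested genes known to respond to cAMP and CREB, palmitate raised 5 and lowered 6, IL-1β raised 4 and lowered none, and both raised 7 and lowered 6. Sik1, a kinase that curbs CREB coactivators, rose from 22.4 ± 1.75 to 46.5 ± 1.26 CPM with palmitate (log2 1.05 ± 0.05, adjusted p = 1.8e-16, edgeR), while the immediate early gene Nr4a1 fell from 4.40 ± 0.696 to 1.63 ± 0.221 CPM (log2 -1.47 ± 0.17, adjusted p = 1.0e-08, edgeR). Cited2, a partner of the coactivators CBP and p300, rose from 39.8 ± 1.85 CPM in BSA to 80.6 ± 4.16 in both (log2 1.01 ± 0.05, adjusted p = 1.6e-16, edgeR). Rgs2 also belongs to this list. The median log2 fold change under palmitate was 0.20 for the Gs-coupled and 0.10 for the Gi-coupled receptor list, -0.09 for other G protein subunits, 0.01 for the regulators, 0.01 for inhibitors and anchors, 0.08 for effectors and CREB factors, and 0.06 for responding genes.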

How the data were processed

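Bulk RNA-seq of 16 mGF libraries, 4 per condition, was used, with conditions taken from the labels. Per the labels and the methods of the study, reads were trimmed (Trimmomatic 0.39), aligned to GRCm39 (STAR 2.7.10a) and counted per GENCODE vM33 gene by strand (HTSeq 2.0.9). The deposited values are raw counts, not normalized. The kit is given as stranded total RNA in the labels and as oligo(dT)-primed in the methods. The 5 summary rows, 18.3% to 21.4% of each library, were left out. Reads with more than 1 alignment were not assigned to genes, which affects near-identical genes. At most 2.56% of any kept gene's Ensembl canonical transcript matched other genes on the same strand (BLAST 2.17.0, 95% identity over 100 bases).

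From the counts, edgeR 4.0.16 (R 4.3.3) was fitted once to all 16 libraries with TMM normalization, filterByExpr (minimum count 10, 16306 genes), robust glmQLFit and glmQLFTest without covariates. Benjamini-Hochberg adjustment covered all tested genes at a threshold of 0.05. SE is the log2 fold change over the root of F, and 95% intervals are normal. CPM used TMM-scaled sizes. RPKM used the union of GENCODE vM39 exons, which understates genes with many isoforms. Replicates differed beyond counting error, with chi-square per degree of freedom from 2.64 to 18.7 over 24 pairs, and none was merged. Described in full were genes called with an absolute log2 fold change of at least 0.5, those with a called interaction and the 2 of highest RPKM per family. Genes, lists and tests were chosen with earlier results of these data known. The fit was also run on simulated counts that gave every gene the same spread. That run cannot speak to the uneven spread between these libraries, and no conclusion is drawn from it. Alternatives were DESeq2 1.42.0, upper-quartile scaling, no filter, a stricter filter (10 counts in all libraries), the table without mitochondrial or ribosomal RNA genes, a fit of the compared libraries alone, and dropping each library in turn. The values of 1 listed receptor gene are not reported here.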

Additional observations from a re-analysis of the deposited data

Results flagged for a closer look

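Of the 136 sets of 4 libraries (a gene in a condition), 5 held a library far from the other 3, and chance flags about 1 set in 20. Adcy2 was at 13.7 CPM in palmitate replicate 9 and at 15.2 to 15.4 in the other palmitate libraries. Pde3a was at 69.4 CPM in IL-1β replicate 8 against 59.8 to 61.3, and Pde8a at 45.2 CPM in IL-1β replicate 5 against 41.8 to 41.9. In BSA replicate 1, Pde4a was at 12.6 CPM against 13.6 in each of the others, and Prkar2a at 62.2 CPM against 67.2 to 67.4. Adcy2 and Pde4a kept their calls against BSA without these libraries, while the IL-1β call of Pde3a was lost without IL-1β replicate 8.

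The effect of IL-1β differed between cells with and without palmitate in 2 genes by the interaction test, Pde4b at -0.45 on the log2 scale (adjusted p = 0.0204, edgeR) and Pde4a at -0.41 (adjusted p = 0.00593, edgeR). For Pde4a the IL-1β effect was 0.31 without palmitate and -0.10 with it (95% interval -0.22 to 0.02), and for Pde4b it was 0.87 and 0.42.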

How the results depend on the processing

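No paired analysis was possible because the labels number the libraries 1 to 16 and no number occurs in 2 conditions. Of 97 calls of a gene in a contrast, 79 held in all alternatives run (22 per contrast of conditions, 21 for the interaction), 18 were lost in at least 1, and none changed sign. Leaving out each library gave 18 to 22 genes called for palmitate, 7 to 11 for IL-1β, 21 to 23 for both against BSA, 15 to 19 for both against IL-1β, 4 to 5 for both against palmitate, 16 to 19 for palmitate against IL-1β, and 1 to 2 for the interaction. Over all settings IL-1β reached 13 genes and both against BSA 26. The uncalled log2 values of Prkacb and Prkar1a for palmitate against BSA crossed 0, at 0.0060 without BSA replicate 3 and 1.3e-05 without palmitate replicate 12, and ranged over left-out libraries from -0.024 to 0.0060 and from -0.036 to 1.3e-05. Adcy5 in both against IL-1β was lost without IL-1β replicate 7. The cause of these losses was not tested. Depth limits Pde8b, Adcy5 and Pde1c most, with 11 to 118, 19 to 91 and 17 to 100 counts per library. Sampling of cultures is not covered by the counting error.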
